A study of Mus musculus with 8 samples.

Results

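The genes described here are the proteasome subunits on a mouse oligonucleotide array. Every gene whose symbol begins with Psma, Psmb, Psmc or Psmd followed by a digit was taken, whatever its values. The rule found 40 symbols on 41 probes, of 15096 symbols on 21779 probes in all. One of them, Psmc3ip, is a meiotic recombination factor and no proteasome part, so 39 subunits on 40 probes remained, with 1 probe each except Psmb8, which had 2. The RNA came from CTL-EN, a mouse T-cell line, made to express the beta-c chain of the human GM-CSF receptor either as the Ser585Gly mutant, in which a serine is replaced by glycine, or as the wild type. Both kinds of cell were kept for 12 h without growth factor in RPMI medium with 0.5% serum, which is the 0 h state, and were then exposed for 12 h to human GM-CSF at 50 ng/mL. The groups were Ser585Gly at 12 h, Ser585Gly at 0 h, wild type at 12 h and wild type at 0 h. How the receptor was introduced and whether each line was a clone or a pool were not given in the sources used here. Total RNA was compared on 8 2-colour arrays that form a square: 12 h against 0 h within each genotype and Ser585Gly against wild type at each time, each edge as a dye-swap pair of 2 arrays.

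The proteasome degrades proteins that carry ubiquitin chains. Its core particle is a stack of rings: outer alpha rings (Psma genes) gate the entrance, and inner beta rings (Psmb genes) hold the active sites. The regulatory particle caps the core. Its base holds a ring of ATPases (Psmc genes) that unfold substrates and a few large scaffold proteins and ubiquitin receptors, and its lid (Psmd genes) removes the ubiquitin chain. In lymphoid cells the catalytic beta subunits can be exchanged for immunoproteasome forms, which change the peptides made for MHC class I presentation.

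After 12 h of GM-CSF, 7 of 39 subunits (17.9%) rose in Ser585Gly cells and 4 of 39 (10.3%) in wild-type cells, and these 4 were among the 7. Of bright probes, those above the 75th percentile of spot brightness, 12% rose in Ser585Gly cells and 10.4% in wild-type cells, so the wild-type count was near the background. With each dye-swap pair averaged to 1 value, 0 subunits passed in Ser585Gly cells and 3 in wild-type cells. Those that held in wild-type cells were Psmc5, Psmc6 and Psmd3. The 7 that rose before averaging included alpha ring subunit Psma4 and the ATPases Psmc1, Psmc5 and Psmc6. The others were the base scaffold Psmd1, the lid scaffold Psmd3 and the lid deubiquitinase Psmd14. Fitted folds of these calls were 1.35 to 1.63. In Ser585Gly cells 1 of 39 subunits (2.56%) fell, the thymus-restricted Psmb11, and in wild-type cells 0 fell. That share was below the 4.72% of all probes and 9.11% of bright probes that fell in Ser585Gly cells. The immunoproteasome subunits Psmb8, Psmb9 and Psmb10 did not pass the test in either genotype. Between genotypes, 1 of 39 subunits (2.56%), Psmd14, was higher in Ser585Gly cells at 12 h, beside 0.918% of all probes. That call was lost with pairs averaged. No subunit passed the test at 0 h or in the test of whether the time effect differed between genotypes.

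A call means a Benjamini-Hochberg adjusted p below 0.05 from limma, a linear model fitted to the log2 ratios of all 21779 probes over the 8 arrays. Each fitted effect draws on the whole square, so it can differ from the mean of its own pair of arrays. All ratios are relative within an array, with Ser585Gly over wild type or 12 h over 0 h. In such bulk RNA, fewer cells of a type and less RNA per cell cannot be told apart. The labels name no separate cultures, so p-values measure only the spread between these hybridisations, and calls are also given with every dye-swap pair averaged to 1 value.

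Spots of the subunits were bright. Of 39 subunits, 33 lay above the 75th percentile of brightness, with a median at the 93.4 percentile, and 39 of 39 lay above the 95th percentile of 244 empty wells. The 6 dimmer ones were Psma8 (19.8 percentile), Psmd11 (38.2), Psmb4 (40.2), Psmc4 (49.8), Psmb11 (51.5) and Psmd9 (62.9). Probe names in the deposited table had to be moved to the spots they belong to. Under the deposited order the 41 probes had a median percentile of 49.2, and 11 of them lay above the 75th, against 35 after the move. T-cell markers had a median percentile of 89.7 (15 of 17 had a probe and 13 were above the empty wells, Cd4 and Gzmb not), whereas myeloid, B-cell, erythroid and fibroblast markers had medians of 24.4, 30.4, 36.7 and 47.4. After 12 h, 1 of 15 T-cell markers rose and 2 fell in Ser585Gly cells, and 2 rose and 2 fell in wild-type cells. The T-cell receptor chains Cd3e (-0.90 in Ser585Gly cells, -0.84 in wild-type cells) and Cd3g (-0.72 and -0.71) fell in both, also with pairs averaged, and lay further below 0 than any subunit. The adaptor Lat (0.49 in each) rose in both and perforin, Prf1 (0.55), in wild-type cells, and these calls were lost with pairs averaged. At 12 h Prf1 was lower in Ser585Gly cells than in wild-type cells (-0.95, adjusted p = 0.0121, 0.0295 with pairs averaged). Of the other markers, 0 of 7 myeloid, 0 of 4 B-cell and 0 of 5 fibroblast markers passed in either genotype. Of 3 erythroid markers 1 passed, the globin Hba-a1 (-0.49 in Ser585Gly cells, -0.45 in wild-type cells, adjusted p = 0.0641 and 0.0842 with pairs averaged). The part of these markers in the subunit results was not tested. Dye-swap partners correlated at 0.51 for each time pair over all probes, but at 0.22 for Ser585Gly against wild type at 12 h and 0.12 at 0 h. The correlation does not show which array of a pair is off. For some subunits the first array of the 0 h pair lay further from 0 than the second (Psmc4 -1.86 against 0.11, Psmd8 0.66 against 0.01). Values of several subunits are also given without that first array.

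Over the whole array, 5.73% of all probes rose and 4.72% fell in Ser585Gly cells, and 5.43% rose and 4.03% fell in wild-type cells. Among bright probes the shares were 12% and 9.11% in Ser585Gly cells, and 10.4% and 7.82% in wild-type cells. The median subunit had a log2 ratio of 0.19 in Ser585Gly cells (33 of 39 above 0) and 0.17 in wild-type cells (29 of 39 above 0), where the medians of all probes were 0.01 and -0.01. On the arrays themselves the subunit medians were 0.24 and 0.20 in Ser585Gly cells and 0.20 and 0.15 in wild-type cells. On all 4 time arrays together, 28 subunits (71.8%) lay above 0 on each and 3 (7.69%) below 0 on each, beside 29.3% and 29% of bright probes. Those shares are descriptions, since arrays may share RNA and subunit genes are not independent.

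**Figure D1:**
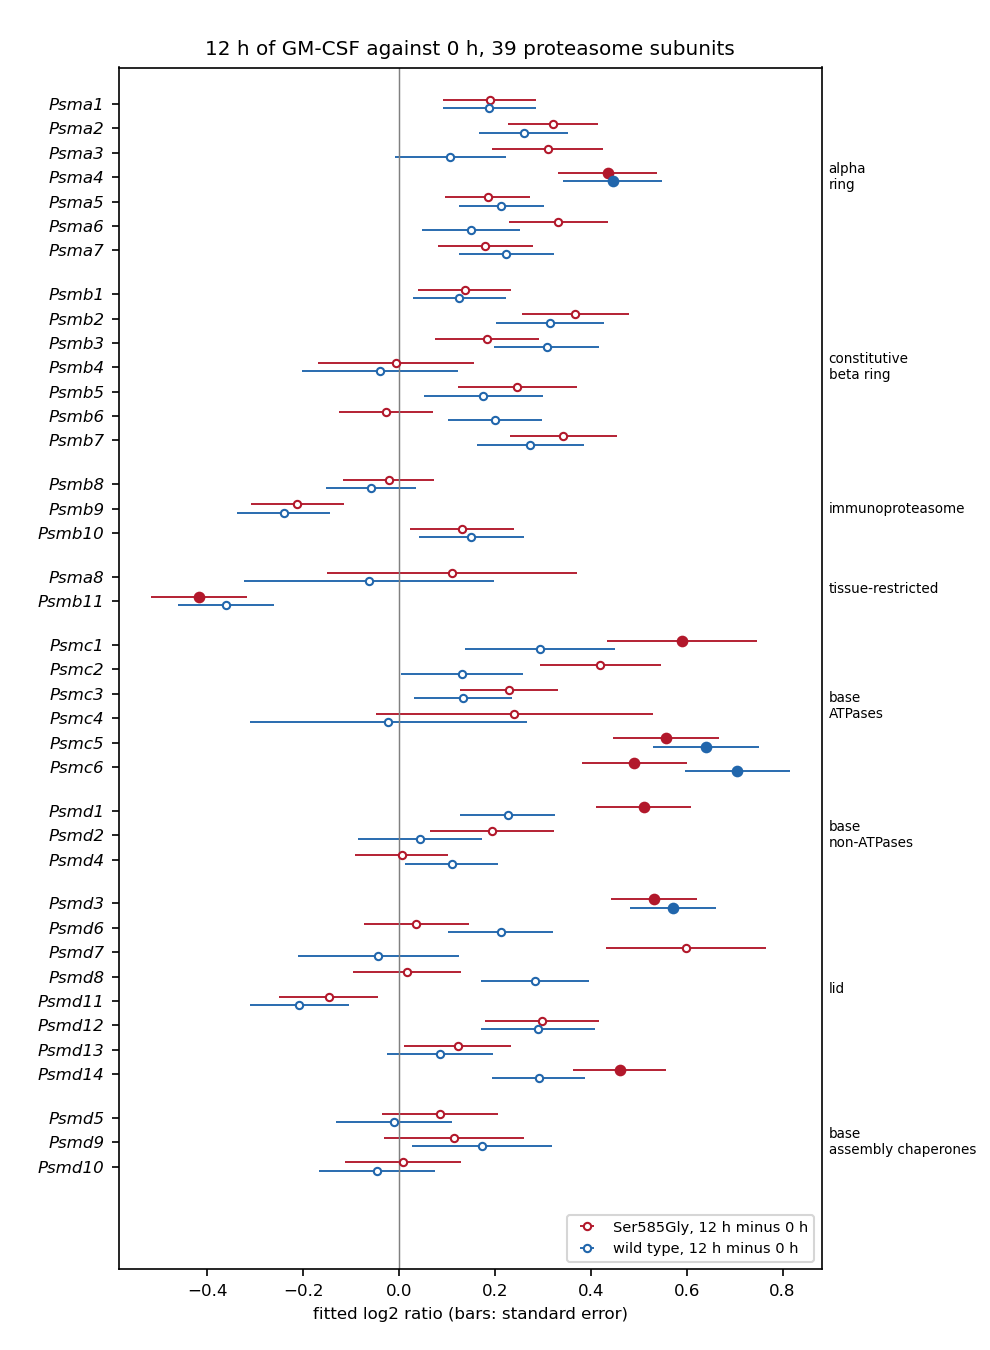
Fitted log2 ratio of 12 h GM-CSF over 0 h (horizontal axis, bars are standard errors) for 39 proteasome subunits grouped by their place in the particle, in Ser585Gly cells (red) and wild-type cells (blue). Filled points passed the test; the alpha ring and the base ATPases sit mostly right of 0, the immunoproteasome subunits around 0, and Psmb11 left of it.

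In the alpha ring, 7 of 7 subunits were above 0 on all 4 time arrays, and 1 of 7 passed the test in each genotype. Fitted values ran between 0.18 and 0.44 in Ser585Gly cells (median 0.31) and between 0.11 and 0.45 in wild-type cells (median 0.21). Psma4 had log2 ratios of 0.53 and 0.41 on the Ser585Gly arrays and 0.41 and 0.41 on the wild-type arrays. The arrays of the genotypes overlapped and none was near 0. Psma4 thus rose 1.35-fold in Ser585Gly cells (log2 0.44 ± 0.10 SE, adjusted p = 0.0318) and 1.36-fold in wild-type cells (0.45 ± 0.10, adjusted p = 0.031). With pairs averaged neither call held (adjusted p = 0.0904 and 0.0883). The other 6 alpha subunits missed the threshold. Psma2, which was near it, had 0.44 and 0.21 on the Ser585Gly arrays and 0.37 and 0.14 on the wild-type arrays, with adjusted p = 0.0662 and 0.129.

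In the constitutive beta ring 0 of 7 subunits passed the limma test in either genotype, although 2 in Ser585Gly cells and 3 in wild-type cells had an unadjusted p below 0.05. Medians were 0.18 in Ser585Gly cells and 0.20 in wild-type cells, close to those of the alpha ring in wild-type cells. Psmb5 carries the chymotrypsin-like site. Its log2 ratios were 0.05 and 0.30 on the Ser585Gly arrays and 0.27 and 0.23 on the wild-type arrays, so 1 Ser585Gly array was near 0. Psmb7, with the trypsin-like site, had 0.19 and 0.36 on the Ser585Gly arrays and 0.33 and 0.36 on the wild-type arrays (adjusted p = 0.0974 and 0.179). Psmb6, with the caspase-like site, had 0.22 and -0.17 on the Ser585Gly arrays and 0.21 and 0.09 on the wild-type arrays. The Ser585Gly pair of Psmb6 disagreed in sign, and its fitted values were -0.03 and 0.20.

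The immunoproteasome subunits, which take the places of these catalytic subunits, differed among themselves in direction. Psmb8 had log2 ratios of 0.14 and -0.14 on the Ser585Gly arrays and 0.09 and -0.25 on the wild-type arrays, and a second probe for it had fitted values of -0.023 and -0.015. Psmb9 had -0.14 and -0.23 on the Ser585Gly arrays and -0.21 and -0.32 on the wild-type arrays. It lay below 0 on all 4, yet missed the threshold (fitted -0.21, adjusted p = 0.231, and -0.24, adjusted p = 0.174). Psmb10 had 0.36 and 0.06 on the Ser585Gly arrays and 0.03 and 0.11 on the wild-type arrays, above 0 on all 4 as Psmb5 and Psmb7 were. In limma 0 of the 3 passed, with 0 in Ser585Gly cells and 1 in wild-type cells at an unadjusted p below 0.05, and the difference between this class and the constitutive subunits was not tested.

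Psmb11 replaces a catalytic subunit in cortical epithelial cells of the thymus, and Psma8 is an alpha subunit of the testis. Psmb11 had log2 ratios of -0.22 and -0.60 on the Ser585Gly arrays and -0.30 and -0.44 on the wild-type arrays. All 4 were below 0 and the genotypes overlapped. Psmb11 fell to 0.75-fold in Ser585Gly cells (log2 -0.42 ± 0.10 SE, adjusted p = 0.0334, 0.0943 with pairs averaged), and its value in wild-type cells was -0.36 (adjusted p = 0.0596). Without the first 0 h array of Ser585Gly against wild type the wild-type value passed as well (-0.39, adjusted p = 0.0222). Its spot was among the dimmer ones, at the 51.5 percentile, and whether these T cells express Psmb11 was not tested.

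The ATPases of the base had the highest class median in Ser585Gly cells, 0.46, with 0.21 in wild-type cells, and 6 of 6 lay above 0 on all 4 time arrays. Of the 6, 3 rose in Ser585Gly cells and 2 in wild-type cells. Psmc5 had log2 ratios of 0.74 and 0.50 on the Ser585Gly arrays and 0.68 and 0.47 on the wild-type arrays. Psmc6 had 0.43 and 0.58 on the Ser585Gly arrays and 0.86 and 0.54 on the wild-type arrays. For both genes all 4 arrays lay well above 0 and the genotypes overlapped. Psmc5 rose 1.47-fold in Ser585Gly cells (adjusted p = 0.0156) and 1.56-fold in wild-type cells (adjusted p = 0.01). Psmc6 rose 1.41-fold in Ser585Gly cells (adjusted p = 0.0258) and 1.63-fold in wild-type cells (adjusted p = 0.00668). With pairs averaged the wild-type calls held (adjusted p = 0.0419 and 0.0272) and the Ser585Gly calls did not (0.0531 and 0.0623).

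Psmc1 had log2 ratios of 0.47 and 0.43 on the Ser585Gly arrays and 0.36 and 0.51 on the wild-type arrays, which overlapped. Its fitted value was higher in Ser585Gly cells (0.59 ± 0.16 SE, 1.51-fold, adjusted p = 0.0483, 0.0781 with pairs averaged) than in wild-type cells (0.29, adjusted p = 0.302). That gap came with the first 0 h array of Ser585Gly against wild type, which read -0.78. Without that array the values were 0.49 (adjusted p = 0.0127) and 0.40 (adjusted p = 0.0296). The remaining ATPases did not pass. Psmc2 had 0.30 and 0.35 on the Ser585Gly arrays and 0.16 and 0.30 on the wild-type arrays, with adjusted p = 0.0776 and 0.599. Psmc3 had 0.23 and 0.13 on the Ser585Gly arrays and 0.15 and 0.21 on the wild-type arrays. Psmc4, on a dimmer spot, had 0.02 and 0.03 on the Ser585Gly arrays and 0.09 and 0.30 on the wild-type arrays.

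**Figure D2:**
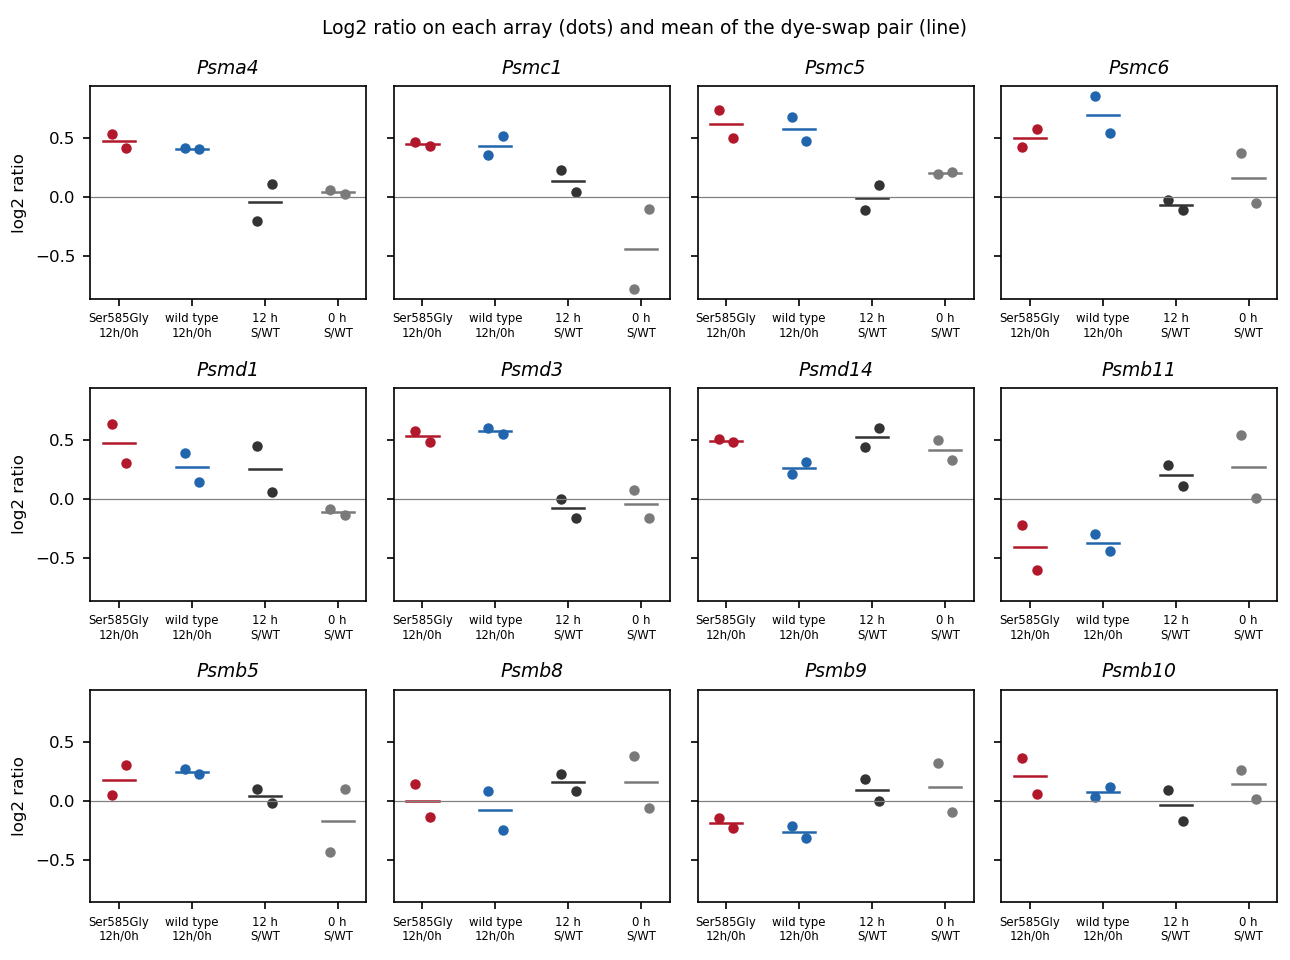
Log2 ratio (vertical axis) on each array for 12 subunits, with a dot for each of the 2 arrays of a dye-swap pair and a line at their mean; red is 12 h over 0 h in Ser585Gly cells, blue the same in wild-type cells, and dark and light grey are Ser585Gly (S) over wild type (WT) at 12 h and 0 h. Psma4, Psmc1, Psmc5, Psmc6, Psmd1, Psmd3 and Psmd14 lie above 0 on all 4 time arrays, Psmb11 and Psmb9 lie below, and Psmd14 also lies above 0 on all 4 arrays that compare genotypes.

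Among the base proteins that are not ATPases, Psmd1 is a scaffold, Psmd2 a scaffold that docks ubiquitin-like domains, and Psmd4 a ubiquitin receptor. Psmd1 had log2 ratios of 0.64 and 0.30 on the Ser585Gly arrays and 0.39 and 0.14 on the wild-type arrays, and the lower array of the first pair lay below the higher one of the second. It rose 1.42-fold in Ser585Gly cells (adjusted p = 0.0146, 0.0608 with pairs averaged) and had a fitted 0.23 in wild-type cells (adjusted p = 0.206). Psmd2 and Psmd4 had fitted values of 0.19 and 0.01 in Ser585Gly cells and 0.04 and 0.11 in wild-type cells, and neither passed.

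In the lid, 2 of 8 subunits rose in Ser585Gly cells and 1 of 8 in wild-type cells, with medians of 0.21 and 0.25. Psmd3, a scaffold of the lid, had log2 ratios of 0.58 and 0.48 on the Ser585Gly arrays and 0.60 and 0.55 on the wild-type arrays, the tightest set among the called genes together with Psma4. It rose 1.45-fold in Ser585Gly cells (adjusted p = 0.00831) and 1.49-fold in wild-type cells (adjusted p = 0.00718). With pairs averaged the call was lost in Ser585Gly cells (adjusted p = 0.05) and held in wild-type cells (adjusted p = 0.0468). Psmd14 is the metalloprotease that cuts ubiquitin chains from the substrate. It had 0.50 and 0.48 on the Ser585Gly arrays and 0.21 and 0.31 on the wild-type arrays, and the pairs did not overlap. It rose 1.38-fold in Ser585Gly cells (adjusted p = 0.0211, 0.0773 with pairs averaged) and had a fitted 0.29 in wild-type cells (adjusted p = 0.108).

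Psmd7, the partner of Psmd14 in the lid, had log2 ratios of 0.49 and 0.48 on the Ser585Gly arrays and 0.07 and 0.07 on the wild-type arrays. The pairs did not overlap, and the fitted values were 0.60 in Ser585Gly cells (adjusted p = 0.058) and -0.04 in wild-type cells (adjusted p = 0.911). Without the first 0 h array of Ser585Gly against wild type, the Ser585Gly value was 0.49 and passed (adjusted p = 0.0127). Psmd8 went the other way, with 0.06 and 0.01 on the Ser585Gly arrays and 0.32 and 0.21 on the wild-type arrays, and passed in neither. Psmd11, a lid scaffold on a dim spot, was below 0 on each (-0.002 and -0.345 in Ser585Gly cells, -0.132 and -0.232 in wild-type cells) and did not pass either. The assembly chaperones of the base, Psmd5, Psmd9 and Psmd10, leave the particle once it is built. In limma 0 of the 3 passed and 0 had an unadjusted p below 0.05, and their medians were 0.09 in Ser585Gly cells and -0.01 in wild-type cells.

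Every call for a time effect was lost when either array of its own time pair was left out, which leaves that edge with 1 array. Over the other left-out arrays, the number of subunits called in Ser585Gly cells was 3 without the second 0 h array, 3 without the second 12 h array, 4 and 3 without the first and second wild-type time array, and 12 without the first 0 h array. These were 7.69%, 7.69%, 10.3%, 7.69% and 30.8% of subunits, beside 7.67%, 6.97%, 7.49%, 6.65% and 15.7% of all probes. In wild-type cells 15.2% of all probes and 7 subunits (17.9%) were called without the first 0 h array. The 4 that joined in Ser585Gly cells without it were Psma2 (0.34, adjusted p = 0.0259), Psma6 (0.29, adjusted p = 0.0469), Psmc2 (0.34, adjusted p = 0.028) and Psmd7, and the 3 that joined in wild-type cells were Psmb7, Psmb11 and Psmc1. Psmc3ip, which the rule caught by its name, had log2 ratios of 1.06 and 0.39 on the Ser585Gly arrays and 0.53 and 0.56 on the wild-type arrays, with adjusted p = 0.0452 (0.0219 with pairs averaged) and 0.173.

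The start regions of the genes that rose in either genotype are shown to set their sequences beside the ratios. RefSeq (GRCm38.p6) gave a window of 300 bases, most of it before the start, for 32 of the 39 genes, and for 6 of the 7 that rose. The windows read 5′ to 3′ on the gene's strand. Capitals mark motif matches on either strand. The first motif was TGANNNNGC, a loose form of the antioxidant response motif that Nfe2l1 and Nfe2l2 bind. The others were the CCAAT box bound by NF-Y and the STAT motif TTCNNNGAA. The lines give gene, window and strand.
Psma4 chr9:54950609-54950908 (+): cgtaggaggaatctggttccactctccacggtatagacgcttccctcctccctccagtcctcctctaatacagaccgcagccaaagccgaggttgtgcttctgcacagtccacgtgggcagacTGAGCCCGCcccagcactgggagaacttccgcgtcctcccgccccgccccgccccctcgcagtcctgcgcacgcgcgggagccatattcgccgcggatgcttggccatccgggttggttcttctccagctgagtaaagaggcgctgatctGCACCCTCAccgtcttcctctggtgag
Psmc1 chr12:100109952-100110251 (+): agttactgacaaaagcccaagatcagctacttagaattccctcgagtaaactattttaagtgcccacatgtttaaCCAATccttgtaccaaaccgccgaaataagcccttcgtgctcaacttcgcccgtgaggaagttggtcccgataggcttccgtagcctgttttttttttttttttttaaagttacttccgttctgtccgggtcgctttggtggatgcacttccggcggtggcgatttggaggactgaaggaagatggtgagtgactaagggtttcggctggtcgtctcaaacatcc
Psmc5 chr11:106255935-106256234 (+): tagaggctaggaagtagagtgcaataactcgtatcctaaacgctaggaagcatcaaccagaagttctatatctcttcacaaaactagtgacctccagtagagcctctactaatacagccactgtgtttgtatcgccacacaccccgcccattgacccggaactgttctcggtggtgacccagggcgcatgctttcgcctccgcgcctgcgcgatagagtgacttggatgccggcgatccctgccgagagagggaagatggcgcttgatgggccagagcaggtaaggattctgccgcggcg
Psmc6 chr14:45329574-45329873 (+): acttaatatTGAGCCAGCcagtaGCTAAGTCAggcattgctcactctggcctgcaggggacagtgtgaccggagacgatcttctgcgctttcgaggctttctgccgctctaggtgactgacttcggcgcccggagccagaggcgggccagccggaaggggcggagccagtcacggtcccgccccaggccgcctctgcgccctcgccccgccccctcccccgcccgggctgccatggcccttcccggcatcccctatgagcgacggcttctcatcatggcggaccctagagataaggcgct
Psmd1 chr1:86064369-86064668 (+): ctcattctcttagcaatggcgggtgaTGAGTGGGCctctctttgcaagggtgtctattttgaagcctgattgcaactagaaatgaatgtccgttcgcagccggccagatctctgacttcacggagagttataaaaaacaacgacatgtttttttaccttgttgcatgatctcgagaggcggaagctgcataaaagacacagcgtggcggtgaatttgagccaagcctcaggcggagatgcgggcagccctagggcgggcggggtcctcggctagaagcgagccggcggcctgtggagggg
Psmd14 chr2:61711444-61711743 (+): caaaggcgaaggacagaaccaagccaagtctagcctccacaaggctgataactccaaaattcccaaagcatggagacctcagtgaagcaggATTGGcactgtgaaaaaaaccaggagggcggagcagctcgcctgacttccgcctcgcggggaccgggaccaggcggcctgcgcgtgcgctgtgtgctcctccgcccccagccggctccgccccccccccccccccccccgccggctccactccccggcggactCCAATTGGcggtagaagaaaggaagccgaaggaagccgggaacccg

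Of these 6 windows, 3 held the loose antioxidant response motif (Psma4 and Psmc6 with 2 matches each, Psmd1 with 1). The CCAAT box was in 2 (Psmc1, and Psmd14 with 3 matches, of which 2 overlap), and 0 held the STAT motif. Psmc5 held none of the 3. Over all subunits the loose antioxidant response motif was in 20 of 34 windows (58.8%), beside 41.3% of 32851 windows of the genome. The CCAAT box was in 13 of 34 (38.2%), beside 37.4%, and the STAT motif in 2 of 34 (5.88%), beside 8.3%. A match describes letters in the window, and binding was not measured.

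Genes that work with the proteasome were taken from a list of 58, of which 44 had a probe. In Ser585Gly cells 9 of 44 rose and 0 fell, and in wild-type cells 7 of 44 rose and 0 fell, with medians of 0.08 and -0.00. Of all probes 5.73% rose in Ser585Gly cells and 5.43% in wild-type cells, and of bright probes 12% and 10.4%. The same shares stand beside the counts for parts of the list below. The list was chosen with earlier results of these data known, so its counts are descriptions. The genes that rose were chiefly assembly factors and proteins attached to the particle. Psme3, the nuclear activator of the core, had log2 ratios of 0.93 and 0.86 on the Ser585Gly arrays and 0.92 and 0.97 on the wild-type arrays. The pairs lay close to each other, and the fitted values of 1.02 in Ser585Gly cells (adjusted p = 0.00373) and 0.81 in wild-type cells (adjusted p = 0.0105) were above those of every subunit and passed with pairs averaged (adjusted p = 0.0191 and 0.036). The inhibitor Psmf1 rose in wild-type cells (0.43, adjusted p = 0.0434, 0.0922 with pairs averaged) and had 0.09 in Ser585Gly cells (adjusted p = 0.68).

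Of 5 factors that assemble the core, 3 rose in Ser585Gly cells and 2 in wild-type cells. Psmg1 had log2 ratios of 0.91 and 0.41 on the Ser585Gly arrays and 0.90 and 0.60 on the wild-type arrays, and Psmg3 had 0.79 and 0.66 on the Ser585Gly arrays and 0.86 and 0.75 on the wild-type arrays. Both genes were well above 0 on all 4 and passed in both genotypes, also with pairs averaged (the highest adjusted p was 0.0377, for Psmg3 in wild-type cells). Psmg2, the partner of Psmg1, rose in Ser585Gly cells (0.68, adjusted p = 0.00579, 0.0321 with pairs averaged) and had 0.30 in wild-type cells (adjusted p = 0.126). The difference between those values did not pass (adjusted p = 0.584). Pomp, the maturation factor, was above 0 without passing, at 0.26 in Ser585Gly cells (adjusted p = 0.123) and 0.33 in wild-type cells (adjusted p = 0.0657).

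Among receptors, shuttles and attached enzymes, 4 of 10 rose in Ser585Gly cells and 3 of 10 in wild-type cells. They were the thioredoxin-like Txnl1 (0.73 in Ser585Gly cells, adjusted p = 0.00262, and 0.55 in wild-type cells, adjusted p = 0.00911), the deubiquitinase Usp14 (0.61, adjusted p = 0.0377, and 0.62, adjusted p = 0.0362) and the shuttle Ubqln1 (0.53, adjusted p = 0.018, and 0.52, adjusted p = 0.0221). The deubiquitinase Uchl5 rose in Ser585Gly cells (0.52, adjusted p = 0.0143) and had 0.32 in wild-type cells (adjusted p = 0.0854). With pairs averaged, Txnl1 and Usp14 held in Ser585Gly cells (adjusted p = 0.0238 and 0.0496), and none of these held in wild-type cells. Each call of these related genes in wild-type cells was lost without either wild-type time array, and each in Ser585Gly cells except Nfe2l2 without the first Ser585Gly time array.

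**Figure D3:**
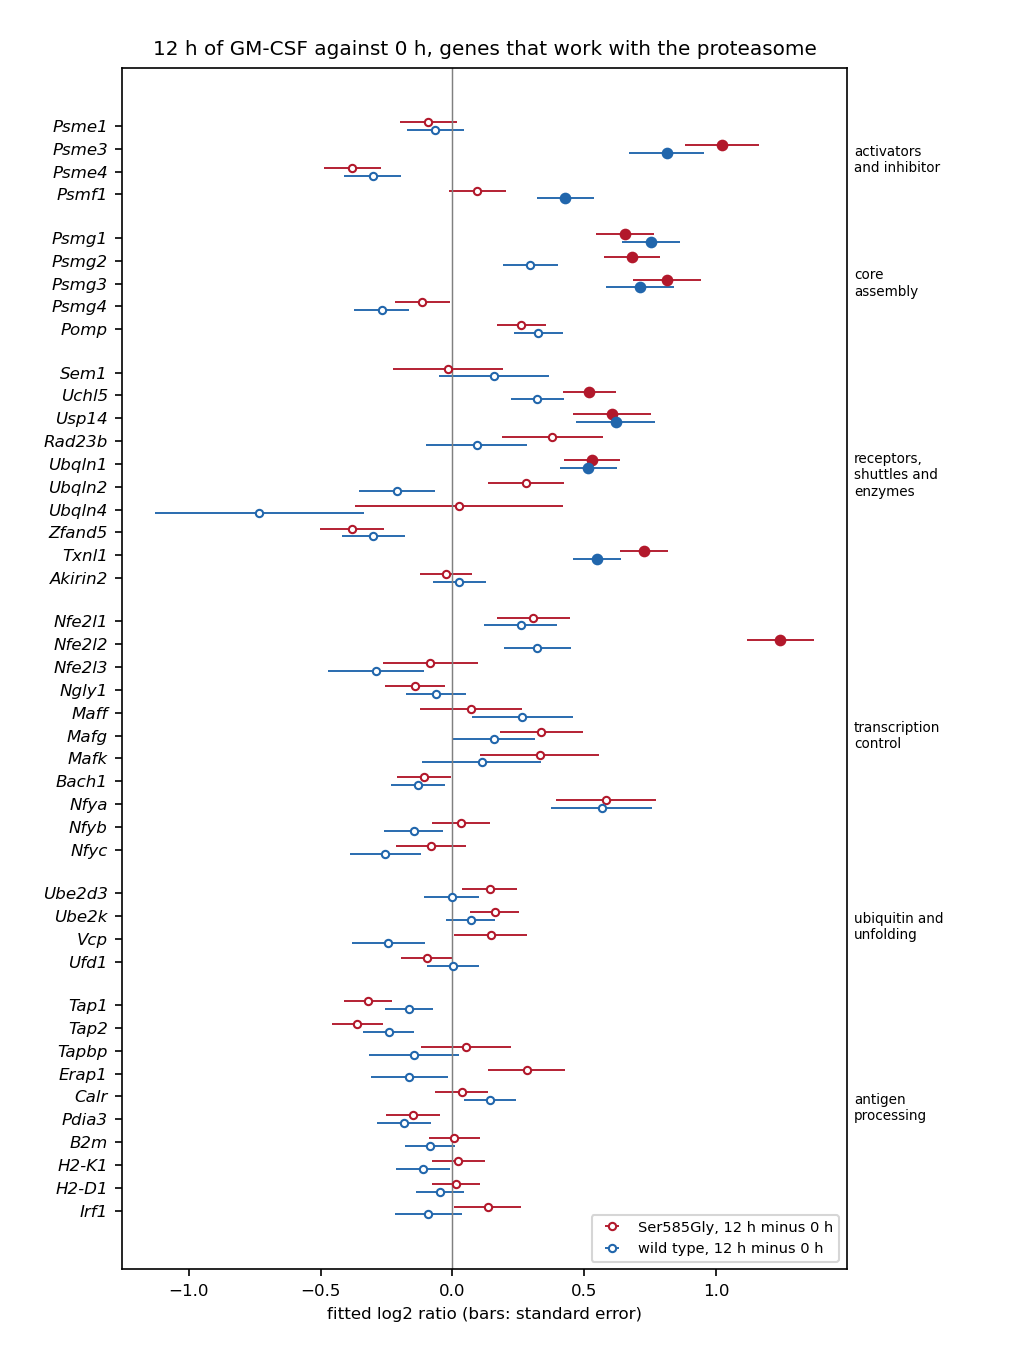
Fitted log2 ratio of 12 h GM-CSF over 0 h (horizontal axis, bars are standard errors) for the 44 listed genes that work with the proteasome, in Ser585Gly cells (red) and wild-type cells (blue), with filled points past the test. Psme3, Psmg1, Psmg3 and Txnl1 lie right of 0 in both genotypes, Nfe2l2 lies furthest right in Ser585Gly cells, and no antigen-processing gene has a filled point.

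Of 11 genes of transcription control, 1 rose in Ser585Gly cells and 0 in wild-type cells, where 2 had an unadjusted p below 0.05. Nfe2l2 encodes Nrf2, the factor of the antioxidant response, which can raise proteasome genes. It had log2 ratios of 1.45 and 0.95 on the Ser585Gly arrays and 0.27 and 0.47 on the wild-type arrays, and the pairs did not overlap. The fitted values were 1.24 (adjusted p = 0.00116, 0.00744 with pairs averaged) in Ser585Gly cells and 0.32 (adjusted p = 0.167) in wild-type cells. Between genotypes at 12 h its arrays read 1.39 and 1.57, a fitted 1.44 (adjusted p = 0.00136, 0.00957 with pairs averaged), and at 0 h the fitted value was 0.51 (adjusted p = 0.0632). Both calls held under all 19 alternatives, but the test of the difference between the time effects did not pass (0.92, adjusted p = 0.173), and its spot was dim, at the 38.1 percentile. Nfe2l1, the factor that restores proteasome genes when the proteasome is inhibited, had 0.31 in Ser585Gly cells (adjusted p = 0.222) and 0.26 in wild-type cells (adjusted p = 0.302). In limma 0 of 10 antigen-processing genes (2 in Ser585Gly cells and 1 in wild-type cells at an unadjusted p below 0.05) and 0 of 4 ubiquitin and unfolding genes (0 in each) passed. In Ser585Gly cells the peptide transporters Tap1 and Tap2 had -0.32 (adjusted p = 0.0634) and -0.36 (adjusted p = 0.0524), against -0.16 and -0.24 in wild-type cells.

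The comparison of genotypes sets Ser585Gly cells beside wild-type cells at each time. Whether each line was a clone or a pool was not given. Other differences between the lines therefore cannot be told apart from an effect of the mutation. At 12 h 1 of 39 subunits was higher in Ser585Gly cells and 0 lower (2.56%), where 0.918% of all probes were higher and 0.799% lower. At 0 h 0 of 39 passed in limma, where 2.07% of all probes were higher and 2% lower. An unadjusted limma p below 0.05 was found for 9 of 39. Shares of all probes at that unadjusted level were not counted, here or for the classes above. Subunit medians were 0.06 at 12 h (26 of 39 above 0) and 0.06 at 0 h (23 of 39 above 0). Of all probes 47.8% were above 0 at 12 h and 49.7% at 0 h, and of bright probes 45% and 45.6%. Print-tip loess in place of loess over the array called 3 subunits (7.69%) at 12 h and 4 (10.3%) at 0 h, where it called 4.56% and 9.37% of all probes. Of the 39, 7 subunits read above 0 on all 4 genotype arrays and 0 read below 0 on all 4. The share of all probes with such signs was not counted, so these counts are descriptions. The second Psmb8 probe, outside this count, also read above 0 on all 4. Its fitted values in limma were 0.317 at 12 h and 0.325 at 0 h (adjusted p = 0.191 and 0.0981). The brighter Psmb8 probe had 0.177 and 0.14 (adjusted p = 0.491 and 0.405).

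**Figure D4:**
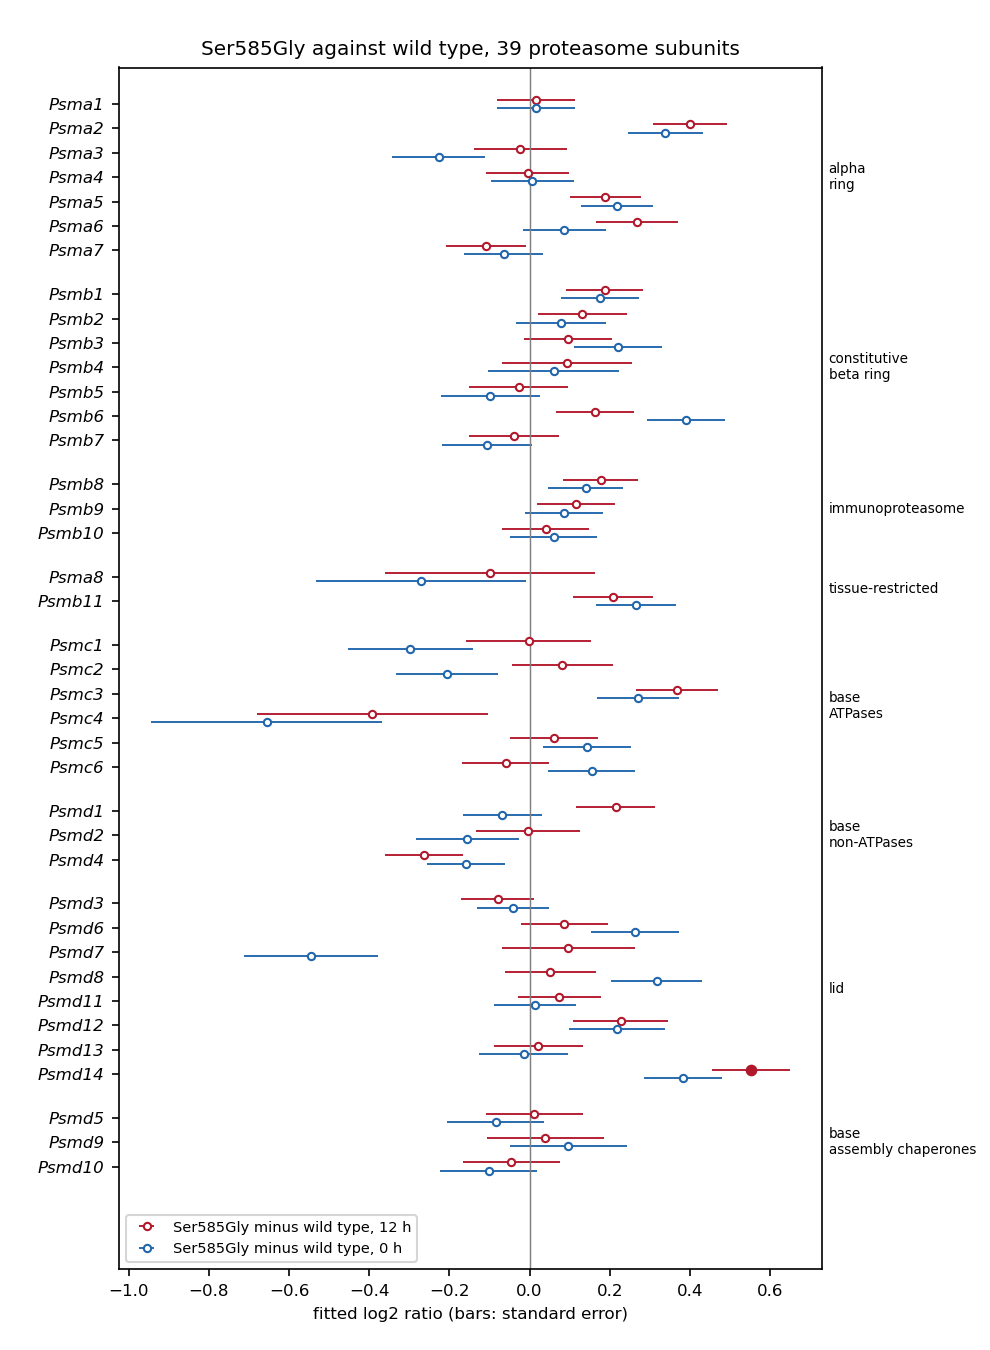
Fitted log2 ratio of Ser585Gly over wild type (horizontal axis, bars are standard errors) for 39 proteasome subunits grouped by their place in the particle, at 12 h (red) and at 0 h (blue), with filled points past the test. Psmd14 at 12 h is the filled point; Psmd7 and Psmc4 lie far left at 0 h, where 1 array reads -1.05 and -1.86 for them.

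Psmd14 had log2 ratios of Ser585Gly over wild type of 0.44 and 0.60 at 12 h and 0.50 and 0.33 at 0 h. All 4 arrays were above 0 and the times overlapped. It was 1.47-fold higher in Ser585Gly cells at 12 h (log2 0.55 ± 0.10 SE, adjusted p = 0.031), and the value at 0 h was 0.38 ± 0.10 (adjusted p = 0.0678). The call at 12 h was lost with pairs averaged (adjusted p = 0.139) and when any array other than the first 0 h array was left out. Without that first 0 h array it was 0.52 (adjusted p = 0.0185).

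Other subunits at the ends of the range did not pass. Psma2 read 0.50 and 0.29 at 12 h and 0.58 and 0.11 at 0 h (adjusted p = 0.089 and 0.0826). Its fitted value at 0 h was 0.339 with the first 0 h array and 0.269 without it. Psmc3 read 0.54 and 0.30 at 12 h and 0.15 and 0.29 at 0 h (adjusted p = 0.151 and 0.17). Both genes lay above 0 on all 4 arrays. Psmb6 read 0.227 and -0.001 at 12 h and 0.63 and 0.26 at 0 h, and its value at 0 h had adjusted p = 0.0654. That fitted value was 0.39 with the first 0 h array and 0.318 without it. At the other end, Psmd4 read -0.24 and -0.39 at 12 h and 0.07 and -0.29 at 0 h, and Psma7 read -0.19 and -0.17 at 12 h and 0.03 and -0.01 at 0 h. Both were below 0 on both 12 h arrays, with adjusted p = 0.295 and 0.723 at 12 h.

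The lowest values at 0 h rested on 1 array. Psmc4 read -0.22 and -0.13 at 12 h and -1.86 and 0.11 at 0 h, and without the first 0 h array its fitted values were -0.16 at 12 h and 0.03 at 0 h, against -0.39 and -0.66 with it. Psmd7 read 0.40 and 0.03 at 12 h and -1.05 and -0.27 at 0 h, and its fitted value at 0 h was -0.55 with that array (adjusted p = 0.111) and -0.21 without it (adjusted p = 0.436). Psmc1 read 0.23 and 0.05 at 12 h and -0.78 and -0.10 at 0 h, and its fitted value at 0 h was -0.30 with that array and 0.00 without it.

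The interaction, the time effect in Ser585Gly cells minus that in wild-type cells, passed in limma for 0 of 39 subunits and for 0.0551% of all probes. An unadjusted limma p below 0.05 was found for 2 of 39, and the share of all probes at that level was not counted. The 3 subunits called higher in Ser585Gly cells but not in wild-type cells, Psmc1, Psmd1 and Psmd14, had interactions of 0.30 (adjusted p = 0.762), 0.28 (adjusted p = 0.699) and 0.17 (adjusted p = 0.773). Without the first 0 h array these were 0.10, 0.21 and 0.23 (adjusted p = 0.879, 0.635 and 0.603), so a difference between genotypes was not shown for them. The highest value was that of Psmd7, 0.64 ± 0.19 SE (adjusted p = 0.563), which was 0.42 (adjusted p = 0.41) without the first 0 h array. Psmc2 had 0.29 (adjusted p = 0.757), and 0.14 (adjusted p = 0.771) without that array. The lowest were Psmd8 at -0.27 (adjusted p = 0.749), Psmb6 at -0.23 (adjusted p = 0.749) and Psmc6 at -0.22 (adjusted p = 0.757). Without that array they were -0.16, -0.18 and -0.15, and the order changed.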

How the data were processed

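Total RNA was labelled with Cy5 or Cy3 and compared on 8 2-colour arrays of 23040 spots, as 4 dye-swap pairs. The authors deposited scanner files with foreground and background intensity per spot, and a table of log2 ratios per probe. Limma is named in the submitters' processing notes, without a version; scanner software was not given in the sources used here. Arrays had a median Cy5 intensity between 631 and 946 and a median Cy3 intensity between 795 and 1105, and the number of arrays limits the precision.

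Names in the deposited table follow a 48-pin print order, whereas the spots follow 24 pins. Table positions were matched to spots by their 8 ratios, and names were then moved to the recovered spot, for 21779 of 21797 probes that are no controls. After the move empty wells had a median brightness percentile of 1.33, against 47.2 before it. Time effects of 1050 probe pairs of one gene correlated at 0.431 in Ser585Gly cells and 0.39 in wild-type cells, against -0.0715 and -0.0166 before it. Symbols were updated through RefSeq gene IDs (15972 probes).

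Intensities were corrected with normexp (offset 50), normalized by loess (span 0.3, control spots at weight 0) and fitted with limma 3.58.1 in R 4.3.3, with terms for dye, mutation, time and interaction (residual degrees of freedom, 4). All p-values are two-sided; Benjamini-Hochberg adjusted p-values below 0.05 were calls. The brightest probe stood for a gene. Genes were named with array values where they passed in an effect or were among the 3 highest or 3 lowest. The scripts were tested on simulated data. Members and lists were chosen with earlier results of these data known. Alternatives were other background corrections, normalizations, priors and dye models, averaged or blocked dye swaps, and each array left out.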

Additional observations from a re-analysis of the deposited data

Results flagged for a closer look

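For 3 subunits the arrays of Ser585Gly over wild type lay on one side of 0 at 12 h and on the other at 0 h. Psmc1 (0.23 and 0.05 at 12 h, -0.78 and -0.10 at 0 h) had an interaction of 0.296 (limma adjusted p = 0.762). Psmd1 (0.45 and 0.06 at 12 h, -0.08 and -0.13 at 0 h) had 0.283 (adjusted p = 0.699). Psmd7 (0.40 and 0.03 at 12 h, -1.05 and -0.27 at 0 h) had 0.642 (adjusted p = 0.563). Psmd5, a chaperone of base assembly, lay above 0 on both Ser585Gly time arrays (0.05 and 0.32) and below 0 on both wild-type time arrays (-0.15 and -0.06), with an interaction of 0.097 (adjusted p = 0.867). The interaction test passed for none of the 4.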

How the results depend on the processing

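The median subunit kept its sign in all 5 effects under 20 alternatives, all except the order of names below. It lay between 0.13 and 0.271 in Ser585Gly cells after 12 h (print-tip loess 0.147, median centring 0.271, deposited values 0.13) and between 0.146 and 0.211 in wild-type cells (0.211 with median centring). Leaving out 1 array gave 0.185 to 0.241 and 0.146 to 0.191, and 0.026 to 0.071 for genotype at 0 h. Numbers of calls moved more. In Ser585Gly cells after 12 h, 8 subunits were called, against 13 with print-tip loess, 16 with the deposited values, 16 with a random block per pair, 2 with the direct arrays alone, 0 with pairs averaged and 0 to 12 with 1 array left out. Calls over all probes moved too, with 10.5% at first against 19.6%, 19.6%, 19.8%, 5.27% and 6.17% under the first 5 of these settings. In wild-type cells, 4 were called, against 11, 12, 9 and 2 under the first 4 of these (all probes 9.46%, against 18.7%, 19.3%, 19.2% and 4.06%) and 0 to 7 with 1 array left out. For genotype, 1 subunit was called at 12 h, against 3 with print-tip loess, 7 with deposited values, 3 with the block, 2 with a prior that follows brightness (all probes 1.72%, against 4.56%, 10.2%, 5.2% and 2.48%), 0 with median centring, pairs averaged or direct arrays alone, and 0 to 1 with 1 array left out. For genotype at 0 h, 0 were called, against 4, 2, 6 and 3 under the first 4 of these settings (all probes 4.07%, against 9.37%, 11.8%, 15.5% and 5.87%), 2 with subtracted background and 2 without the dimmest probes. The last 2 settings called 5.31% and 7.85% of the probes tested. The causes of these changes were not tested.

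Names in the deposited order were tried after seeing the data, and give each name another spot. Medians were then -0.046 in Ser585Gly cells and -0.076 in wild-type cells after 12 h. Calls numbered 5 (12.8%) and 2 (5.13%), beside 10.5% and 9.42% of all probes. For genotype, 0 subunits were called at 12 h and 4 (10.3%) at 0 h, beside 1.64% and 4.15% of all probes. For the interaction 1 (2.56%) was called, beside 0.0551%. Single values that turned were, in Ser585Gly cells, Psma2 -1.138, Psma4 -0.190, Psmc5 -0.046, Psmc6 -0.190, Psmd1 -0.032, Psmd14 -0.246 and Psmd4 -0.920. In wild-type cells Psmc5 -0.076, Psmd3 -0.174 and Psmd4 -1.054 turned. Genotype values that turned were Psmd14 -0.264 at 12 h and Psmd11 -0.489 and Psmd7 0.500 at 0 h, and for the interaction Psma2 -1.191. Replicate numbers mark dye orientation, and the labels do not say whether arrays share a culture. Apart from the averaged or blocked dye-swap pairs, no paired analysis was run.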
